A study of Mus musculus with 12 samples.

Results

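The mitochondrial protein import genes are the genes whose products carry proteins made in the cytosol into mitochondria. They were taken by name: all gene symbols that start with Tomm or Timm and a digit, without pseudogenes, plus *Grpel1*, *Grpel2*, *Pam16*, *Hspa9*, *Dnajc19*, *Chchd4*, *Gfer*, *Samm50*, *Mtx1*, *Mtx2*, *Hspd1* and *Hspe1*. This gave 38 of the 57180 genes in the deposited tables by a rule that uses names only. The rule was chosen with earlier results of these data known, so counts of members beside the background are descriptions only. 37 of them were among the 25446 genes tested, which had at least 10 estimated counts over all libraries. The exception was *Tomm20l*, a paralog of the receptor *Tomm20*, with 3 counts in all libraries together. *Tomm6os*, an RNA transcribed opposite to *Tomm6*, came in by its symbol and encodes no import subunit.

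RNA was sequenced from 12 libraries of E14 mouse embryonic stem cells (ESCs) that carry a doxycycline (DOX)-inducible repressor, in 4 groups with 3 libraries each. Neg cells carry scramble guide RNAs and 3×KD cells carry guide RNAs aimed at the transcription starts of 3 genes, *Pcx*, *Me1* and *Me2*, whose enzymes move carbon between pyruvate and the TCA cycle. Each line was sequenced as ESCs in 2iLIF medium and as epiblast-like cells at day 2 of induction (EpiLCs) with Activin A, Fgf2 and XAV939. DOX was given to both lines, so all 4 groups expressed the repressor, which came from a single picked clone. The guide RNAs were integrated by piggyBac and selected with hygromycin, and each guide set is represented by 1 line, so an effect of the repression and a difference between the lines cannot be told apart. The study describes its experiments as biological triplicates. Because the 3 libraries of a group share a line, p-values measure the spread between libraries of that line only.

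The libraries held 11221023 to 19652197 estimated counts each. *Pcx* fell by 1.14 and 1.05, *Me1* by 0.89 and 1.05 and *Me2* by 0.95 and 0.98 on the log2 scale in 3×KD ESCs and EpiLCs. Summed over 8 naive markers, ESC levels were 5098 to 5257 CPM in Neg and 3984 to 4061 in 3×KD cells, and EpiLC levels 307.8 to 321.7 and 453.9 to 468.8. Summed over 6 formative markers they were 258.4 to 270.9, 285.7 to 292.4, 3024 to 3389 and 1728 to 1792 CPM in the same order, so the 3×KD EpiLC libraries stood between ESCs and Neg EpiLCs on both lists. The part of these marker differences in the results was not tested, and in bulk RNA fewer cells of a state and less RNA per cell cannot be told apart. Marker sums of primitive endoderm, trophoblast and fibroblasts stayed under 34 CPM in every library.

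Nearly all mitochondrial proteins are encoded in the nucleus and made on cytosolic ribosomes. They enter through the TOM complex of the outer membrane and are then sorted. Proteins with a cleavable presequence pass the TIM23 translocase of the inner membrane and are pulled into the matrix by the PAM motor, whose engine is the Hsp70 of the matrix. Carrier proteins are escorted by the small TIM chaperones to the TIM22 translocase, β-barrel proteins are inserted by the SAM complex, and small cysteine-rich proteins of the intermembrane space are trapped by the MIA disulfide relay. In the matrix, the chaperonin made of *Hspd1* and *Hspe1* folds many of the newcomers.

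Several import genes share a start region with a neighbour on the other strand. Of the 36 protein-coding members tested, 12 (33.3%) had a tested protein-coding gene on the other strand that started within 1000 bases, against 10.9% of all 17054 such genes and 14.9% of the 9251 of them that averaged 10 CPM or more. The DNA between the starts is shown for 3 such pairs because it is all that lies between their canonical starts, although the annotations of both genes overlap in each pair: *Hspe1* and *Hspd1*, the partners of one chaperonin, *Timm23* and *Parg*, and *Timm8b* and *Sdhd*, a subunit of respiratory complex II. The 200 bases upstream of the start are shown for 5 members with differences between groups: *Tomm22*, *Tomm40l*, *Timm17a*, *Pam16* and *Samm50*. All are given from the GRCm39 genome with the Ensembl canonical start, 5′ to 3′ in the direction of the gene named first. Capitals mark the letters of CCGGAAG (bound by the ETS factor GABP, a known regulator of mitochondrial genes), of CCAAT (bound by NF-Y) and of TGATGNAA (bound by ATF4 with CHOP), read on both strands.
*Hspe1* to *Hspd1*, chr1:55127184-55127290, plus strand: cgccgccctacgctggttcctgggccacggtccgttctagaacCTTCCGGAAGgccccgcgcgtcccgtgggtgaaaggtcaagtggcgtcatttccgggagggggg
*Timm23* to *Parg*, chr14:31923856-31923905, minus strand: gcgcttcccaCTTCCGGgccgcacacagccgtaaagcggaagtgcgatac
*Timm8b* to *Sdhd*, chr9:50515125-50515192, plus strand: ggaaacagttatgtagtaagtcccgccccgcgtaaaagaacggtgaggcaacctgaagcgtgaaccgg
*Tomm22*, chr15:79554862-79555061, plus strand: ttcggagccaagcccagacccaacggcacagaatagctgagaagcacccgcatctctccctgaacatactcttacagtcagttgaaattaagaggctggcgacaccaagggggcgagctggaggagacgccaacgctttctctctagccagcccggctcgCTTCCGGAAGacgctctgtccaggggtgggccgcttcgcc
*Tomm40l*, chr1:171050097-171050296, minus strand: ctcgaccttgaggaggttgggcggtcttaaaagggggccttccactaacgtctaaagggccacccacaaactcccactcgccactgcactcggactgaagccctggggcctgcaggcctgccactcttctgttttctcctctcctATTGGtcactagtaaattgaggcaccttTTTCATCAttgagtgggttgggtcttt
*Timm17a*, chr1:135241517-135241716, minus strand: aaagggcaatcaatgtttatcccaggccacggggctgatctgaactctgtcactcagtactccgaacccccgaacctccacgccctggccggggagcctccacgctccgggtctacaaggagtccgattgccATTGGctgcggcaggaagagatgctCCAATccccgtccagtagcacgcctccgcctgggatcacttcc
*Pam16*, chr16:4442853-4443052, minus strand: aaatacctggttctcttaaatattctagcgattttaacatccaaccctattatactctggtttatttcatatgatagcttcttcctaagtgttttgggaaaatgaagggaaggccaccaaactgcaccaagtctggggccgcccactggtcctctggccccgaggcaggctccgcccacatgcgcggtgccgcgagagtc
*Samm50*, chr15:84076216-84076415, plus strand: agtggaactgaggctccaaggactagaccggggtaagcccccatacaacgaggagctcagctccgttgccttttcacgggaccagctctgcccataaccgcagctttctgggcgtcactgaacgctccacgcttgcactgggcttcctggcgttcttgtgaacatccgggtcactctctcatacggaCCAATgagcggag
In the region between *Hspe1* and *Hspd1* and upstream of *Tomm22*, CCGGAAG stands on both strands in one palindrome, while none of the motifs is in the stretches of *Timm8b* and *Pam16*.

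The motifs were searched on both strands from 250 bases before to 50 bases after the start of the 36 members and of the 17054 genes. CCGGAAG was found in 12 members (33.3%), against 12.7% of all genes and 17.8% of the genes of at least 10 CPM. Its holders were *Grpel1*, *Grpel2*, *Hspd1*, *Hspe1*, *Mtx2*, *Timm10*, *Timm23*, *Timm29*, *Timm8a2*, *Timm8b*, *Tomm22* and *Tomm7*. The NRF1 motif (GCGC, any base, then TGCGC) was found in 6 members (16.7%), against 7.27% and 10.8%. The other motifs lay close to the background: CCAAT in 41.7% of members against 39.7% and 41.8%, the E-box CACGTG in 11.1% against 9.15% and 11.3%, the YY1 motif AAGATGG in 8.33% against 5.79% and 6.86%, and TGATGNAA in 2.78% against 2.73% and 2.21%. Upstream of *Tomm40l* lies the one match of the last motif in a member. None of these motifs contains another. A match describes the letters in the window only, and no binding was measured.

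On the TPM scale, which divides by transcript length and depth, the levels of the tested import genes spanned a wide range. These values serve to order the genes within a group. Differences between groups were tested on counts, as given further on, and are not to be read from TPM. *Hspa9*, the mitochondrial Hsp70, was at the top of the 37 in every group, with 246 ± 46.9 TPM in Neg ESCs and 343 ± 34 in Neg EpiLCs (SD, n = 3). The receptor *Tomm20* (212 ± 46.6 and 262 ± 15.9) and the chaperonin *Hspd1* (179 ± 32.5 and 246 ± 9.04) came next in each group. The SDs of neighbours in this order overlapped for all 3 in Neg ESCs, for *Tomm20* and *Hspd1* in Neg EpiLCs and for *Hspa9* and *Tomm20* in 3×KD EpiLCs, so the order is loose in these groups. *Timm17a* and *Hspe1* followed, in changing order. Near the other end were *Chchd4* (8.14 ± 1.65 and 10.5 ± 0.332 TPM), the import receptor of the intermembrane space, and *Timm8a2* (4.72 ± 0.539 and 3.89 ± 0.74), a small TIM paralog. *Timm21* held place 36 of 37 in both ESC groups, before *Tomm6os* alone, and places 20 and 25 in Neg and 3×KD EpiLCs.

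The first question was how the levels of the import genes differed between 3×KD and Neg cells in each state. All adjusted p-values here come from the quasi-likelihood test of edgeR, adjusted by Benjamini-Hochberg over all genes tested. A gene passed with an adjusted p under 0.01, and was called where the log2 fold change was also beyond 0.58 in either direction. In ESCs, 6 import genes were higher and 10 lower in 3×KD cells (16 of 37). Over all genes tested, 15.6% were higher and 16% lower, and over the 9634 genes that averaged 10 CPM or more, 27.3% and 33.4%. Of the 34 members at that level, 17.6% were higher and 26.5% lower. Called were 3 members (*Pam16* higher, *Timm10* and *Timm29* lower), against 15.3% of all genes. In EpiLCs, 1 import gene was higher (*Pam16*) and 16 were lower, against 14.3% and 15.6% of all genes and 25.1% and 35.1% of those of at least 10 CPM. Of the 34 members at that level, 2.94% were higher and 47.1% lower. The only one called was *Timm17a* (lower), against 13.2% of all genes. The median log2 fold change of the 37 was −0.03 in ESCs and −0.16 in EpiLCs, beside 0.03 and 0.03 over all genes and −0.03 and −0.06 over those of at least 10 CPM. Against all genes of at least 10 CPM, the share of lower members was thus below the background in ESCs and above it in EpiLCs. The share of higher members was below it in both. The background genes are not matched to the members in level, and the differences in share were not tested. With offsets for the mean transcript length of each library, 7 members passed in ESCs and 11 in EpiLCs. The shares of all genes with these offsets are not given here.

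In 3×KD cells of both states, 8 members were lower: *Grpel1*, *Hspd1*, *Mtx1*, *Timm17a*, *Timm22*, *Timm23*, *Timm29* and *Tomm22*. Over all genes this held for 10.5%, and for 24.4% of those of at least 10 CPM. *Pam16* alone was higher in both, as were 9.63% of all genes and 17.9% of those of at least 10 CPM. *Gfer* and *Samm50* were higher in ESCs and lower in EpiLCs. Passing in opposite directions held for 1.22% of all genes and 2.89% of those of at least 10 CPM.

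**Figure D1:**
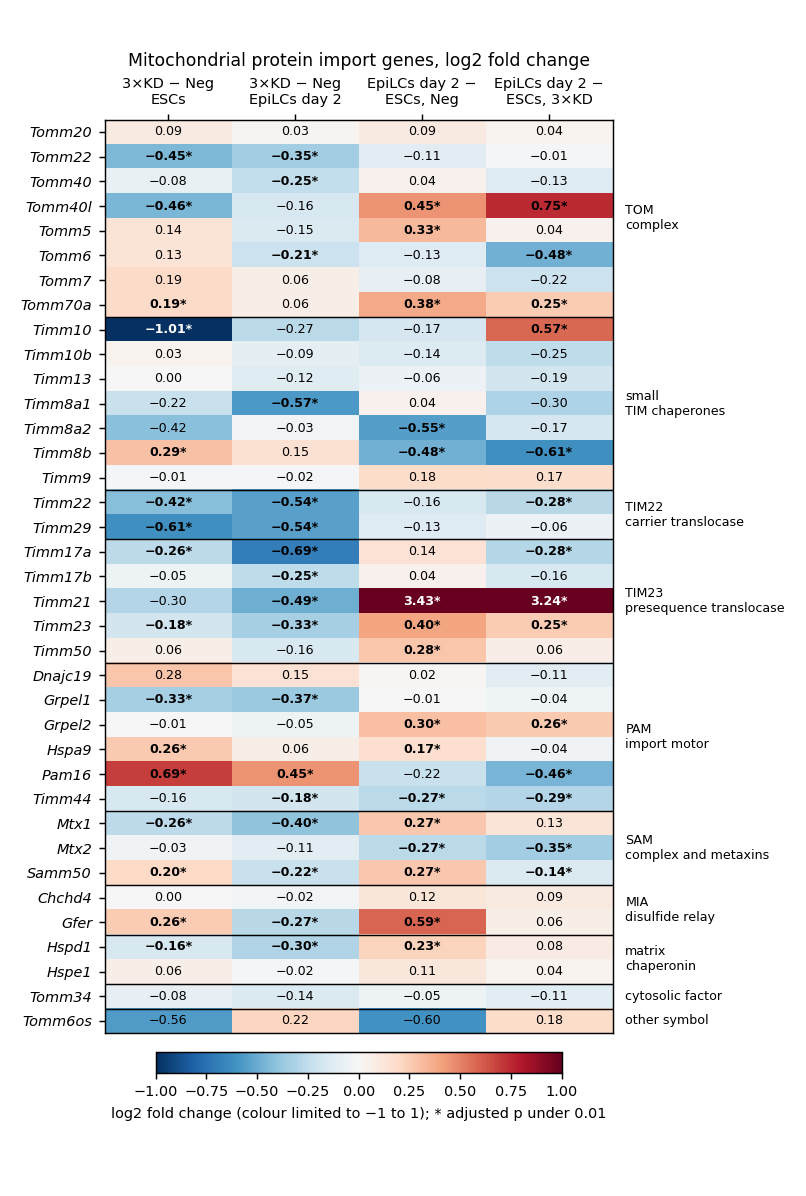
Log2 fold change of the 37 import genes tested (rows, grouped by role) in the 4 comparisons (columns), with the value in each cell, an asterisk where the adjusted p was under 0.01, and colours limited to −1 to 1. The 3×KD columns hold mostly small values, with *Timm10* at −1.01 in ESCs and *Pam16* at 0.69, and the columns for EpiLCs against ESCs are led by *Timm21* at 3.43 and 3.24.

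The second question was how the import genes changed from ESCs to EpiLCs. In Neg cells, 12 rose and 4 fell, against 17.5% and 18.2% of all genes and 30.6% and 32.7% of those of at least 10 CPM. Of the 34 members of at least 10 CPM, 35.3% rose and 8.82% fell. *Timm21* and *Gfer* were called, both higher, against 20.8% of all genes. In 3×KD cells, 6 rose and 8 fell, against 15.9% and 17.9% of all genes and 26.5% and 33.8% of those of at least 10 CPM, and of the 34 members 14.7% rose and 23.5% fell. Called were *Timm21* and *Tomm40l* (higher) and *Timm8b* (lower), against 18.7% of all genes. The median log2 fold change of the members was 0.04 in Neg and −0.04 in 3×KD cells. It was 0.01 and 0.01 over all genes and −0.01 and −0.04 over those of at least 10 CPM. The split depended on the scaling: in Neg cells 16 rose and 2 fell with upper-quartile factors, 13 and 2 with DESeq2 and 12 and 7 with library size alone, and in 3×KD cells 7 rose and 6 fell with upper-quartile factors and with DESeq2. The median of all genes of at least 1 CPM moved with the scaling too. In Neg cells it was −0.01 as fitted, 0.07 with upper-quartile factors, 0.01 with DESeq2 and −0.05 with library size alone. In 3×KD cells it was −0.02 as fitted, 0.05 with upper-quartile factors and 0.01 with DESeq2. With transcript-length offsets 9 members passed in Neg and 7 in 3×KD cells. The shares of all genes under these alternative settings are not given here. Over the 4 comparisons, 27 members passed at least once. The share of all genes that did so was not counted, so this number describes the members alone. The 10 that passed in none were *Chchd4*, *Dnajc19*, *Hspe1*, *Timm10b*, *Timm13*, *Timm9*, *Tomm20*, *Tomm34*, *Tomm6os* and *Tomm7*.

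At the entry gate, the TOM complex, the central receptor was lower in 3×KD cells of both states. *Tomm22*, which hands precursors from the outer receptors to the channel, stood at 81.9, 82.9 and 84.9 CPM in the ESCs of Neg and 60.9, 59.3 and 62.8 in those of 3×KD, with 78, 76.9 and 76.9 in the EpiLCs of Neg and 60.3, 62.4 and 59 in those of 3×KD. All 3×KD libraries lay below all Neg libraries in both states, and the ESC and EpiLC libraries of 3×KD cells overlapped. The log2 fold change was −0.45 ± 0.039, adjusted p = 7.53e-08 in ESCs and −0.35 ± 0.039, adjusted p = 1.38e-06 in EpiLCs (SE throughout). *Tomm70a*, the receptor that binds carrier precursors and their cytosolic chaperones, gave 342, 334 and 327 CPM in the ESCs of Neg and 373, 381 and 392 in those of 3×KD, with 446, 422 and 438 in the EpiLCs of Neg and 459, 452 and 452 in those of 3×KD. Its EpiLC libraries lay above its ESC libraries in both lines, and 3×KD above Neg in ESCs. It rose from ESCs to EpiLCs by 0.38 ± 0.032, adjusted p = 3.91e-08 in Neg cells and by 0.25 ± 0.032, adjusted p = 6.6e-06 in 3×KD cells, and was higher in 3×KD ESCs (0.19 ± 0.033, adjusted p = 0.000124). *Tomm40l*, a paralog of the channel *Tomm40*, was measured at 15, 14.2 and 13.3 CPM in the ESCs of Neg and 8.54, 12.2 and 10 in those of 3×KD, with 20.6, 18.5 and 18.7 in the EpiLCs of Neg and 17.2, 16.8 and 17.6 in those of 3×KD. Here every EpiLC library lay above every ESC library, and the 3×KD ESC libraries were the lowest. Its log2 fold change was −0.46 ± 0.11, adjusted p = 0.00213 for 3×KD against Neg ESCs, 0.45 ± 0.10, adjusted p = 0.00147 for EpiLCs against ESCs in Neg cells and 0.75 ± 0.10, adjusted p = 1.61e-05 in 3×KD cells.

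The small TOM subunit *Tomm6*, which helps to hold the complex together, was counted at 79.4, 72.7 and 79.3 CPM in the ESCs of Neg and 83.4, 87.6 and 83.1 in those of 3×KD, with 72.9, 67.1 and 71.5 in the EpiLCs of Neg and 58, 62 and 62.4 in those of 3×KD. In 3×KD EpiLCs all 3 libraries were below those of every other group, and in ESCs the 3×KD libraries were above the Neg ones. It was lower in 3×KD EpiLCs than in Neg EpiLCs (−0.21 ± 0.048, adjusted p = 0.00185) and than in 3×KD ESCs (−0.48 ± 0.048, adjusted p = 3.48e-07), while 3×KD against Neg ESCs gave 0.13 ± 0.047, adjusted p = 0.0327. Most of the sequence of *Tomm6* (71.8% of its 31-base words) also occurs in the readthrough gene *Gm21981*, to which 203 counts were assigned in all, beside 13792 for *Tomm6*. The channel *Tomm40* was lower in 3×KD EpiLCs (−0.25 ± 0.038, adjusted p = 4.73e-05) and *Tomm5* higher in Neg EpiLCs than in Neg ESCs (0.33 ± 0.08, adjusted p = 0.00286). *Tomm20*, *Tomm7* and the cytosolic factor *Tomm34* passed in none of the 4 comparisons, with log2 fold changes from −0.22 to 0.19. In the TOM complex, genes that no longer passed were *Tomm40l* in ESCs (adjusted p = 0.0213 without replicate 1 of 3×KD ESCs and adjusted p = 0.0216 with transcript-length offsets), in Neg cells (adjusted p = 0.0118 without replicate 3 of Neg ESCs and adjusted p = 0.989 with transcript-length offsets) and in 3×KD cells (adjusted p = 0.0103 with transcript-length offsets), *Tomm6* in EpiLCs (adjusted p from 0.0126 to 0.0143 without replicate 1 of Neg EpiLCs or replicate 1 of 3×KD EpiLCs and adjusted p from 0.0136 to 0.0181 with library size alone or transcript-length offsets) and *Tomm5* in Neg cells (adjusted p from 0.0105 to 0.0113 without replicates 1 or 2 of Neg ESCs and adjusted p = 0.0121 with transcript-length offsets). With 3×KD ESCs replicate 2 left out, *Tomm40l* in ESCs was at −0.61 and thus called. Per length, *Tomm40* made up 88.3% of the summed TPM of *Tomm40* and *Tomm40l* in Neg and 91.7% in 3×KD ESCs, and 89% and 86.4% in EpiLCs (exact permutation test, p = 0.1 each, the smallest possible).

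Among the small TIM chaperones, which ferry hydrophobic precursors across the intermembrane space, single members moved in different directions. *Timm10*, which forms a hexamer with *Timm9*, stood at 12.7, 11.4 and 11 CPM in the ESCs of Neg and 5.28, 6.4 and 5.62 in those of 3×KD, with 11, 9.73 and 10.4 in the EpiLCs of Neg and 9.06, 7.61 and 9.12 in those of 3×KD. Its 3×KD ESC libraries were below all others. In ESCs 3×KD against Neg gave a log2 fold change of −1.01 ± 0.11, adjusted p = 1.24e-06 and in EpiLCs −0.27 ± 0.11, adjusted p = 0.0565, and *Timm10* rose from 3×KD ESCs to 3×KD EpiLCs (0.57 ± 0.11, adjusted p = 0.00048). Its partner *Timm9* held 10.5, 11.6 and 10.8 CPM in Neg ESCs and 10.6, 10.5 and 11.5 in 3×KD ESCs, which overlap, with a log2 fold change of −0.01 ± 0.088, adjusted p = 0.948.

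*Timm8b*, of the second small TIM hexamer, showed 23.7, 21.3 and 22.2 CPM in the ESCs of Neg and 29.6, 27.7 and 24.6 in those of 3×KD, with 16.5, 15.4 and 16.2 in the EpiLCs of Neg and 17.4, 17.8 and 18.4 in those of 3×KD. Every EpiLC library was below every ESC library, and 3×KD above Neg in both states. It fell from ESCs to EpiLCs (−0.48 ± 0.075, adjusted p = 4.89e-05 in Neg and −0.61 ± 0.073, adjusted p = 2.58e-06 in 3×KD cells) and was higher in 3×KD ESCs (0.29 ± 0.072, adjusted p = 0.00369). *Timm8a1*, its paralog, whose human counterpart is mutated in a deafness-dystonia syndrome, was found at 23.6, 24 and 20.6 CPM in the ESCs of Neg and 19.9, 18.6 and 19.7 in those of 3×KD, with 24.9, 22.7 and 22.4 in the EpiLCs of Neg and 12.9, 16.5 and 17.7 in those of 3×KD. It was lower in 3×KD EpiLCs, whose libraries lay below all others, by its log2 fold change of −0.57 ± 0.10, adjusted p = 0.000166, and gave −0.22 ± 0.10, adjusted p = 0.0834 in ESCs. Of the 31-base words of *Timm8a1*, 21.5% also occur in 330 other genes, which held 2924889 counts in all, beside 3797 for *Timm8a1*. How reads were split between them was not tested. *Timm8a2*, a low-level relative, gave 5.41, 4.68 and 5 CPM in the ESCs of Neg and 3.5, 3.6 and 4.18 in those of 3×KD, with 3.02, 3.89 and 3.35 in the EpiLCs of Neg and 3.54, 3.26 and 3.25 in those of 3×KD. In Neg cells its EpiLC libraries were below its ESC libraries (−0.55 ± 0.15, adjusted p = 0.00519). *Timm10b*, *Timm13* and *Timm9* passed in none of the 4 comparisons, with values from −0.25 to 0.18.

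*Timm8a1* made up 18.9% of the summed TPM of *Timm8a1* and *Timm8b* in Neg ESCs and 14.1% in 3×KD ESCs (exact p = 0.1), and 25% in Neg EpiLCs and 16.7% in 3×KD EpiLCs (exact p = 0.1). These are two-sided exact permutation tests over 3 against 3 libraries, which cannot give a p below 0.1. The share was smaller in all 3×KD libraries of each state. In this group, genes that no longer passed were *Timm8b* in ESCs (adjusted p from 0.014 to 0.022 without replicates 2 or 3 of Neg ESCs or replicates 1 or 2 of 3×KD ESCs and adjusted p from 0.013 to 0.0278 with DESeq2, transcript-length offsets or the 2 groups alone), *Timm8a2* in Neg cells (adjusted p from 0.0102 to 0.042 without replicates 1 or 3 of Neg ESCs, replicate 1 of 3×KD ESCs, replicates 1 or 3 of Neg EpiLCs or replicate 3 of 3×KD EpiLCs and adjusted p from 0.0139 to 0.0477 with upper-quartile factors, DESeq2, no filter on low counts, transcript-length offsets or the 2 groups alone) and *Timm10* in 3×KD cells (adjusted p = 0.021 with transcript-length offsets). The log2 fold change of *Timm8b* in 3×KD cells fell short of the fold limit without 3×KD ESCs replicate 1 (−0.54), with upper-quartile factors (−0.54) and with library size alone (−0.58). That of *Timm10* in 3×KD cells was beyond the limit with RLE factors (0.60), upper-quartile factors (0.65), library size alone (0.61), DESeq2 (0.60) and both other filters (0.59 and 0.60), and without replicate 2 of 3×KD ESCs (0.66), replicates 1 or 2 of Neg EpiLCs (0.59 each) or replicate 2 of 3×KD EpiLCs (0.66). That of *Timm8a1* in EpiLCs was beyond it without replicates 2 (−0.58) or 3 (−0.60) of Neg EpiLCs, without replicates 2 (−0.61) or 3 (−0.67) of 3×KD EpiLCs, and with transcript-length offsets or the 2 groups alone (−0.59 each). That of *Timm8a2* in Neg cells was beyond it with library size alone (−0.59) and without replicate 2 of Neg ESCs (−0.60) or of Neg EpiLCs (−0.62).

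The TIM22 translocase inserts metabolite carriers and other multi-spanning proteins into the inner membrane. *Timm29* and *Timm22*, the members grouped here under it, were lower in 3×KD cells of both states. So were 10.5% of all genes and 24.4% of those of at least 10 CPM. The small TIM chaperones that work with this translocase were grouped apart, and of these *Timm9* and *Timm10b* passed in none of the comparisons. *Timm29*, the subunit that joins the complex to TOM, was at 54.5, 56.6 and 58.9 CPM in the ESCs of Neg and 38.2, 37.4 and 35.5 in those of 3×KD, with 51.6, 50.9 and 52.8 in the EpiLCs of Neg and 34.9, 37.9 and 33.7 in those of 3×KD. The 3×KD and Neg libraries did not overlap in either state, and 3×KD ESCs and 3×KD EpiLCs overlapped. On the log2 scale 3×KD differed by −0.61 ± 0.052, adjusted p = 6.97e-08 in ESCs and −0.54 ± 0.053, adjusted p = 3.27e-07 in EpiLCs. *Timm22*, the channel-forming subunit, was at 24.2, 25.1 and 25.2 CPM in the ESCs of Neg and 17.6, 19.3 and 18.8 in those of 3×KD, with 22.4, 20.1 and 24.3 in the EpiLCs of Neg and 15.1, 16 and 14.7 in those of 3×KD. Its 3×KD libraries were again below its Neg libraries in both states, with log2 fold changes of −0.42 ± 0.074, adjusted p = 0.000179 in ESCs and −0.54 ± 0.076, adjusted p = 1.89e-05 in EpiLCs, and it was lower in 3×KD EpiLCs than in 3×KD ESCs (−0.28 ± 0.076, adjusted p = 0.00684). *Timm22* no longer passed in ESCs with transcript-length offsets (adjusted p = 0.0897), nor did its fall in 3×KD cells (adjusted p from 0.0106 to 0.0316 without replicates 2 or 3 of 3×KD ESCs, replicate 1 of Neg EpiLCs or replicates 1 or 3 of 3×KD EpiLCs and adjusted p from 0.0111 to 0.052 with RLE factors, upper-quartile factors, library size alone, DESeq2, no filter on low counts, transcript-length offsets or the 2 groups alone). In EpiLCs, *Timm22* was beyond the fold limit without Neg EpiLCs replicate 2 (−0.60) and with transcript-length offsets (−0.67), and *Timm29* without 3×KD EpiLCs replicate 2 (−0.59).

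**Figure D2:**
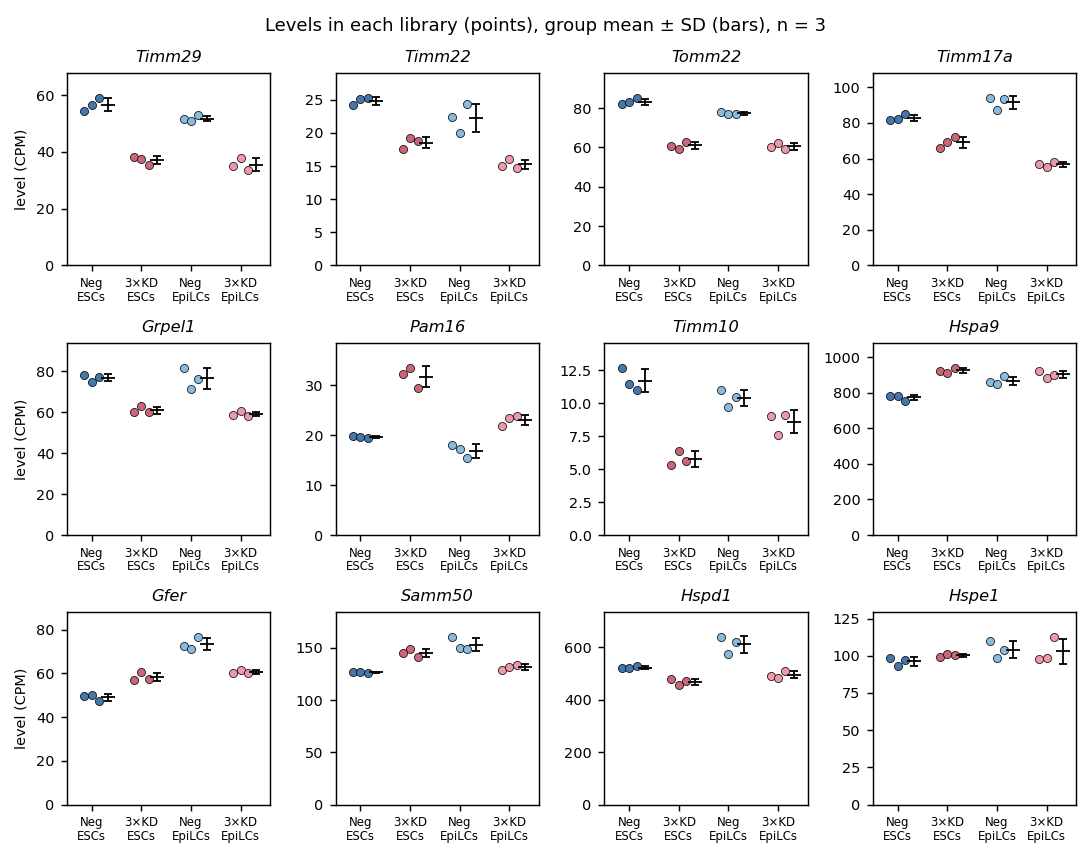
Levels (CPM, linear axes from 0) of 12 import genes in each of the 12 libraries (points, one colour a group), with the group mean and SD beside them (n = 3). *Timm29*, *Timm22*, *Tomm22* and *Grpel1* form a high pair of Neg groups and a low pair of 3×KD groups, whereas *Gfer* and *Samm50* are higher in 3×KD than Neg ESCs and lower in 3×KD than Neg EpiLCs.

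In the TIM23 translocase, the presequence gate of the inner membrane, 4 of 5 subunits were lower in 3×KD EpiLCs and 2 of 5 in 3×KD ESCs. Over all genes 15.6% and 16% were lower, and over those of at least 10 CPM 35.1% and 33.4%. *Timm17a*, a core subunit whose protein is degraded under stress, stood at 81.4, 82 and 84.9 CPM in the ESCs of Neg and 65.9, 69.1 and 72.1 in those of 3×KD, with 93.8, 87.5 and 93.2 in the EpiLCs of Neg and 56.7, 55.1 and 58.3 in those of 3×KD. Its 3×KD libraries were below its Neg libraries in both states, and the 3×KD EpiLC libraries were below all others. The log2 fold change was −0.26 ± 0.044, adjusted p = 0.000118 in ESCs and −0.69 ± 0.044, adjusted p = 2.85e-09 in EpiLCs. *Timm17b*, its paralog on the X chromosome, gave 25, 24 and 25.3 CPM in the ESCs of Neg and 22.5, 24.4 and 25 in those of 3×KD, with 27.3, 22.9 and 26.2 in the EpiLCs of Neg and 21.5, 21.2 and 21.4 in those of 3×KD. The ESC groups overlapped, and the 3×KD EpiLC libraries lay in a narrow range below all others (−0.25 ± 0.069, adjusted p = 0.00772). Per length, *Timm17a* made up 76.4% of both paralogs in Neg and 75.9% in 3×KD cells as ESCs, and 76.3% and 72.2% as EpiLCs, and the shares of the EpiLC libraries did not overlap between lines (exact permutation test, p = 0.1, the smallest possible).

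*Timm23*, the channel, was measured at 127, 121 and 131 CPM in the ESCs of Neg and 111, 114 and 108 in those of 3×KD, with 179, 159 and 159.9 in the EpiLCs of Neg and 130.3, 140.2 and 126 in those of 3×KD. The EpiLC libraries were above the ESC libraries in Neg cells and, with less distance, in 3×KD cells. It rose by 0.40 ± 0.05, adjusted p = 4.95e-06 in Neg and 0.25 ± 0.051, adjusted p = 0.000652 in 3×KD cells, and was lower in 3×KD than Neg cells in ESCs (−0.18 ± 0.051, adjusted p = 0.00785) and EpiLCs (−0.33 ± 0.05, adjusted p = 4.71e-05). *Parg*, which starts 51 bases from it on the other strand, was lower in 3×KD cells too, with log2 fold changes of −0.40 ± 0.035, adjusted p = 1.06e-07 in ESCs and −0.29 ± 0.035, adjusted p = 3.47e-06 in EpiLCs. Of the 31-base words of *Timm23*, 38.4% also occur in 307 other genes, which held 3346493 counts in all, beside 25228 for *Timm23*. The gene sharing the most of them, *Gm10273*, held 63 counts. How reads were split between these genes was not tested. *Timm50*, the presequence receptor, was higher in Neg EpiLCs than Neg ESCs (0.28 ± 0.05, adjusted p = 0.00017). Genes that no longer passed were *Timm17a* in ESCs (adjusted p = 0.239 with transcript-length offsets), *Timm17b* in EpiLCs (adjusted p from 0.0104 to 0.048 without replicates 1 or 3 of Neg ESCs, replicate 2 of 3×KD ESCs, replicates 1 or 3 of Neg EpiLCs or replicates 1, 2 or 3 of 3×KD EpiLCs and adjusted p from 0.013 to 0.0915 with library size alone, DESeq2, no filter on low counts, transcript-length offsets or the 2 groups alone), *Timm50* in Neg cells (adjusted p = 0.0763 with transcript-length offsets) and *Timm23* in ESCs (adjusted p from 0.0134 to 0.0564 without replicates 1 or 3 of Neg ESCs, replicates 1, 2 or 3 of 3×KD ESCs, replicate 2 of Neg EpiLCs or replicate 3 of 3×KD EpiLCs and adjusted p from 0.0154 to 0.0313 with upper-quartile factors or transcript-length offsets).

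*Timm21*, which links TIM23 to the TOM complex and to the respiratory chain, had by far the widest range of the members between states. It stood at 2.84, 2.89 and 2.29 CPM in the ESCs of Neg and 1.9, 2.38 and 2.16 in those of 3×KD, with 29.1, 30.7 and 25.8 in the EpiLCs of Neg and 18.5, 21.1 and 21.4 in those of 3×KD. The EpiLC libraries were about an order of magnitude above the ESC libraries, with no overlap. The level was 10.8-fold higher in EpiLCs of Neg cells (log2 fold change 3.43 ± 0.12, adjusted p = 2.6e-13) and 9.43-fold higher in those of 3×KD cells (3.24 ± 0.12, adjusted p = 1.27e-12). In EpiLCs it was lower in 3×KD than in Neg cells (−0.49 ± 0.091, adjusted p = 0.00033), which no longer passed with transcript-length offsets (adjusted p = 0.0652), and ESCs gave −0.30 ± 0.16, adjusted p = 0.247, with no more than 45 counts in a library.

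The start of *Timm21* lies 592 bases from that of *Fbxo15*, an F-box gene known as a marker of ESCs, and both genes are transcribed away from each other. *Fbxo15* gave 479, 509 and 481 CPM in the ESCs of Neg and 461, 443 and 453 in those of 3×KD, and 80.9, 84.5 and 86 and 169.8, 164 and 158 in their EpiLCs. Its order over the groups was thus the reverse of that of *Timm21* in EpiLCs against ESCs and in 3×KD against Neg EpiLCs. Its log2 fold change from ESCs to EpiLCs was −2.55 ± 0.039, adjusted p = 1.03e-17 in Neg and −1.46 ± 0.037, adjusted p = 9.63e-15 in 3×KD cells, and its level was higher in 3×KD than Neg EpiLCs (0.97 ± 0.039, adjusted p = 1.69e-11). The annotations of both genes overlap on opposite strands. The libraries were made with a directional kit, and whether counting used the strand is not given in the sources used here. Over the 11 pairs of import genes and divergent neighbours, both genes passed in 2 pairs in 3×KD against Neg ESCs, in 3 in 3×KD against Neg EpiLCs, and in 3 and 2 in EpiLCs against ESCs of Neg and 3×KD cells. They moved in the same direction in all of these, except for *Timm21* with *Fbxo15* in each of the comparisons other than the first. The same counts were not taken over other pairs of neighbours, so whether neighbours move together was not tested.

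**Figure D3:**
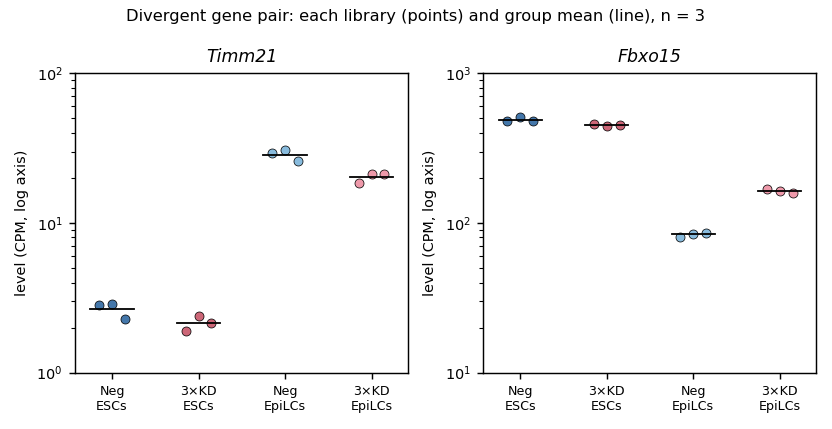
Levels of *Timm21* (left) and of its divergent neighbour *Fbxo15* (right) in each of the 12 libraries (points) with the group mean (line, n = 3), on log axes in CPM. *Timm21* lies at 1.9 to 2.89 CPM in ESCs and 18.5 to 30.7 CPM in EpiLCs, while all EpiLC libraries of *Fbxo15* lie below its ESC libraries.

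The PAM motor, which pulls presequence proteins into the matrix, held the one member that was higher in 3×KD cells of both states. *Pam16*, a J-like subunit that holds the J-protein *Dnajc19* in check, stood at 19.9, 19.8 and 19.4 CPM in the ESCs of Neg and 32.3, 33.5 and 29.4 in those of 3×KD, with 18.1, 17.2 and 15.4 in the EpiLCs of Neg and 21.8, 23.4 and 23.8 in those of 3×KD. All 3×KD libraries were above all Neg libraries, with a log2 fold change of 0.69 ± 0.071, adjusted p = 6.23e-07 in ESCs and 0.45 ± 0.073, adjusted p = 0.000104 in EpiLCs, and 3×KD EpiLCs were below 3×KD ESCs (−0.46 ± 0.07, adjusted p = 3.51e-05). With transcript-length offsets it no longer passed in EpiLCs (adjusted p = 0.274), and its difference between 3×KD EpiLCs and ESCs was beyond the fold limit (−0.61). *Pam16* lies on chromosome 16, as does *Tomm70a*, and the 454 genes of this chromosome with a mean of at least 1 CPM had a median log2 fold change of 0.30 for 3×KD against Neg cells in ESCs and in EpiLCs, with 74.4% and 77.1% of them above 0. The median of every other chromosome that holds a member lay between −0.08 and 0.06 in all comparisons. Relative to the median of chromosome 16, *Pam16* was at 0.39 in ESCs and 0.15 in EpiLCs, and *Tomm70a* at −0.10 and −0.24. The part of this chromosome-wide shift in the values of both genes was not tested.

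*Hspa9*, the motor's Hsp70, was at 779, 785 and 756 CPM in the ESCs of Neg and 925, 912 and 940.2 in those of 3×KD, with 860.4, 850.4 and 893 in the EpiLCs of Neg and 924, 884 and 901 in those of 3×KD. The 3×KD ESC libraries were above all Neg ESC libraries, and the EpiLC groups overlapped. It was higher in 3×KD ESCs (0.26 ± 0.032, adjusted p = 5.09e-06), rose to EpiLCs in Neg cells (0.17 ± 0.032, adjusted p = 0.000392) and gave 0.06 ± 0.032, adjusted p = 0.188 in EpiLCs. *Grpel1*, one of its nucleotide exchange factors, gave 78.4, 74.9 and 77.4 CPM in the ESCs of Neg and 60, 63 and 60 in those of 3×KD, with 81.7, 71.5 and 76.4 in the EpiLCs of Neg and 58.9, 60.5 and 58.3 in those of 3×KD, with every 3×KD library below every Neg library. The log2 fold change was −0.33 ± 0.048, adjusted p = 2.25e-05 in ESCs and −0.37 ± 0.048, adjusted p = 8.11e-06 in EpiLCs. *Grpel2*, the other, gave 48.8, 47 and 48.8 CPM in the ESCs of Neg and 47.3, 49.3 and 47.6 in those of 3×KD, with 62.9, 55.4 and 59.9 in the EpiLCs of Neg and 58.1, 56.6 and 57.6 in those of 3×KD, with overlapping Neg and 3×KD libraries in both states and the EpiLC libraries above the ESC libraries. It rose to EpiLCs by 0.30 ± 0.048, adjusted p = 6.05e-05 in Neg and 0.26 ± 0.048, adjusted p = 0.000295 in 3×KD cells, and was within its error between lines (−0.01 ± 0.049, adjusted p = 0.966 in ESCs). Per length, *Grpel1* made up 57.4% of the pair in Neg and 50.1% in 3×KD ESCs, and 49.8% and 46.5% in EpiLCs, with overlapping libraries in both states (exact permutation test, p = 0.3 each).

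*Timm44*, which tethers the Hsp70 to the TIM23 channel, was found at 65.6, 67.2 and 64.8 CPM in the ESCs of Neg and 60.2, 58.7 and 58.1 in those of 3×KD, with 53.8, 54 and 55.8 in the EpiLCs of Neg and 49, 44.5 and 50.9 in those of 3×KD. Its EpiLC libraries lay below its ESC libraries in both lines, and the 3×KD below the Neg libraries in both states. The log2 fold change to EpiLCs was −0.27 ± 0.048, adjusted p = 0.000159 in Neg and −0.29 ± 0.048, adjusted p = 8.52e-05 in 3×KD cells, and its level was lower in 3×KD EpiLCs (−0.18 ± 0.048, adjusted p = 0.0067). *Dnajc19*, the J-protein of the motor, passed in none of the comparisons and gave 0.28 ± 0.082, adjusted p = 0.0124 in ESCs. In the motor, genes that no longer passed were *Grpel2* with transcript-length offsets in Neg (adjusted p = 0.0778) and 3×KD cells (adjusted p = 0.621), *Timm44* in 3×KD cells (adjusted p = 0.154 with transcript-length offsets) and *Timm44* in EpiLCs (adjusted p from 0.0102 to 0.0421 without replicate 2 of 3×KD ESCs, replicates 1, 2 or 3 of Neg EpiLCs or replicates 1 or 2 of 3×KD EpiLCs and adjusted p from 0.0142 to 0.978 with library size alone, DESeq2, no filter on low counts, transcript-length offsets or the 2 groups alone), where the offsets gave a log2 fold change of 0.01, on the other side of 0.

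Of the SAM complex, which inserts β-barrel proteins into the outer membrane, and its metaxins, the central subunit differed in opposite directions in both states. *Samm50* stood at 127, 127 and 126 CPM in the ESCs of Neg and 145, 149 and 141 in those of 3×KD, with 160.0, 149.7 and 149 in the EpiLCs of Neg and 128, 132 and 134 in those of 3×KD. The 3×KD libraries were above the Neg libraries in ESCs and below them in EpiLCs, without overlap. Its log2 fold change was 0.20 ± 0.036, adjusted p = 0.000282 in ESCs and −0.22 ± 0.036, adjusted p = 0.000101 in EpiLCs, and *Samm50* rose to EpiLCs in Neg cells (0.27 ± 0.036, adjusted p = 8.04e-06) and fell in 3×KD cells (−0.14 ± 0.036, adjusted p = 0.00337). *Mtx1* was lower in 3×KD cells of both states (−0.26 ± 0.064, adjusted p = 0.00351 in ESCs and −0.40 ± 0.063, adjusted p = 6.28e-05 in EpiLCs) and rose to EpiLCs in Neg cells (0.27 ± 0.063, adjusted p = 0.00192). *Mtx2*, its partner, gave 40, 37.7 and 36.1 CPM in the ESCs of Neg and 35.1, 41.5 and 34.3 in those of 3×KD, with 33.2, 30.9 and 30.2 in the EpiLCs of Neg and 26.8, 30 and 30.3 in those of 3×KD. The lines overlapped in both states, and the EpiLC libraries were below the ESC libraries, with −0.27 ± 0.075, adjusted p = 0.00766 in Neg and −0.35 ± 0.075, adjusted p = 0.0011 in 3×KD cells. With transcript-length offsets, *Samm50* no longer passed in ESCs (adjusted p = 0.0187), in EpiLCs (adjusted p = 0.051) and in Neg cells (adjusted p = 0.0191). Others that no longer passed were *Samm50* in 3×KD cells (adjusted p from 0.0105 to 0.0229 without replicates 1 or 2 of 3×KD ESCs or replicates 1 or 2 of 3×KD EpiLCs and adjusted p from 0.0137 to 0.111 with RLE factors, upper-quartile factors, library size alone, DESeq2, no filter on low counts or transcript-length offsets), *Mtx1* in ESCs (adjusted p from 0.0112 to 0.0243 without replicates 2 or 3 of Neg ESCs or replicates 1 or 3 of 3×KD ESCs and adjusted p = 0.498 with transcript-length offsets) and in Neg cells (adjusted p = 0.0106 without replicate 1 of Neg ESCs), and *Mtx2* in Neg (adjusted p from 0.0174 to 0.0562 without replicates 1 or 2 of Neg ESCs, replicate 1 of 3×KD ESCs, replicates 1, 2 or 3 of Neg EpiLCs or replicate 3 of 3×KD EpiLCs and adjusted p from 0.0121 to 0.257 with RLE factors, upper-quartile factors, DESeq2 or transcript-length offsets) and 3×KD cells (adjusted p = 0.0978 with transcript-length offsets). With the offsets *Mtx1* was beyond the fold limit in EpiLCs (−0.59) and in Neg cells (0.60).

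In the MIA relay, which traps small proteins by disulfide bonds, the oxidase that recharges the relay followed the pattern of *Samm50*. *Gfer* stood at 49.8, 49.9 and 47.1 CPM in the ESCs of Neg and 57.1, 60.5 and 57.5 in those of 3×KD, with 72.4, 71.1 and 76.4 in the EpiLCs of Neg and 60.3, 61.6 and 59.9 in those of 3×KD. The 4 groups formed 3 levels, with Neg ESCs lowest, both 3×KD groups in between and overlapping, and Neg EpiLCs highest. The log2 fold change of 3×KD against Neg was 0.26 ± 0.045, adjusted p = 0.00017 in ESCs and −0.27 ± 0.043, adjusted p = 6.93e-05 in EpiLCs, and EpiLCs against ESCs gave 0.59 ± 0.044, adjusted p = 8.31e-09 in Neg and 0.06 ± 0.044, adjusted p = 0.35 in 3×KD cells. *Chchd4*, the relay's receptor, stayed within 38.1 to 46.8 CPM in all libraries, and its largest log2 fold change was 0.12. The value of *Gfer* in Neg cells fell short of the fold limit without Neg ESCs replicate 3 (0.56) or Neg EpiLCs replicate 3 (0.55) and with library size alone (0.55), and *Gfer* no longer passed in ESCs with transcript-length offsets (adjusted p = 0.0233).

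Of both partners of the matrix chaperonin, which start 108 bases apart on opposite strands, *Hspd1* was lower in 3×KD cells and *Hspe1* passed in no comparison. *Hspd1*, the barrel subunit, was at 519.7, 521 and 528 CPM in the ESCs of Neg and 478, 455 and 471 in those of 3×KD, with 638, 574 and 622 in the EpiLCs of Neg and 490.2, 485 and 512 in those of 3×KD. Its 3×KD libraries were below its Neg libraries in both states. Against Neg the log2 fold change was −0.16 ± 0.039, adjusted p = 0.00297 in ESCs and −0.30 ± 0.039, adjusted p = 7.9e-06 in EpiLCs, and *Hspd1* rose to EpiLCs in Neg cells (0.23 ± 0.039, adjusted p = 0.000131). *Hspe1*, the lid, was at 98.7, 92.8 and 97.1 CPM in the ESCs of Neg and 99.2, 101 and 101 in those of 3×KD, with 109.8, 98.3 and 104 in the EpiLCs of Neg and 97.8, 98.7 and 112 in those of 3×KD. The 3×KD ESC libraries were slightly above the Neg ones and the EpiLC groups overlapped, at 0.06 ± 0.053, adjusted p = 0.402 and −0.02 ± 0.052, adjusted p = 0.863. Per length, *Hspd1* made up 60.9% of the pair in Neg ESCs and 57.2% in 3×KD ESCs, a difference of −3.67 percentage points, and 62.4% and 58.3% in EpiLCs, −4.08 points. In both states the shares of the libraries did not overlap (exact permutation test, p = 0.1 each, the smallest possible). Many pseudogenes share sequence with *Hspd1* (50.1% of its 31-base words), but only 285 counts were assigned to them in all, beside 98659 for *Hspd1*. *Hspd1* no longer passed in ESCs in some settings (adjusted p from 0.0134 to 0.0192 without replicate 3 of Neg ESCs or replicates 1 or 2 of 3×KD ESCs and adjusted p = 0.0233 with transcript-length offsets). *Tomm6os* held 2 to 16 counts in a library and passed in no comparison.

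The third question was where the effect of 3×KD differed between states, tested as the difference of both log2 fold changes (EpiLCs minus ESCs). *Timm10*, with a mean of 9.11 CPM, was higher and 5 members were lower, against 4.76% and 5.27% of all genes. Of the 34 members of at least 10 CPM, 0 were higher and 14.7% lower, against 10.2% and 12.2% of all genes at that level. The median over the 37 was −0.13, beside −0.001 over all genes and −0.03 over those of at least 10 CPM. *Timm10*, which passed in ESCs and not in EpiLCs, had a difference of 0.74 ± 0.15, adjusted p = 0.00278. *Gfer* (−0.53 ± 0.062, adjusted p = 1.47e-05) and *Samm50* (−0.42 ± 0.051, adjusted p = 2.29e-05) crossed from higher to lower. For *Timm17a* the fall was larger in EpiLCs (−0.43 ± 0.063, adjusted p = 0.000136). For *Tomm6* (−0.35 ± 0.068, adjusted p = 0.00163) and *Hspa9* (−0.20 ± 0.045, adjusted p = 0.00504) the effect was lower in EpiLCs than in ESCs. Differences that no longer passed were those of *Timm10* (adjusted p = 0.0118 without replicate 1 of 3×KD ESCs and adjusted p = 0.142 with transcript-length offsets), of *Hspa9* (adjusted p from 0.0166 to 0.0204 without replicate 3 of Neg ESCs, replicate 3 of 3×KD ESCs, replicate 3 of Neg EpiLCs or replicate 2 of 3×KD EpiLCs and adjusted p from 0.0153 to 0.119 with library size alone or no filter on low counts) and of *Samm50* and *Tomm6* with transcript-length offsets (adjusted p = 0.0169 and 0.0176).

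**Figure D4:**
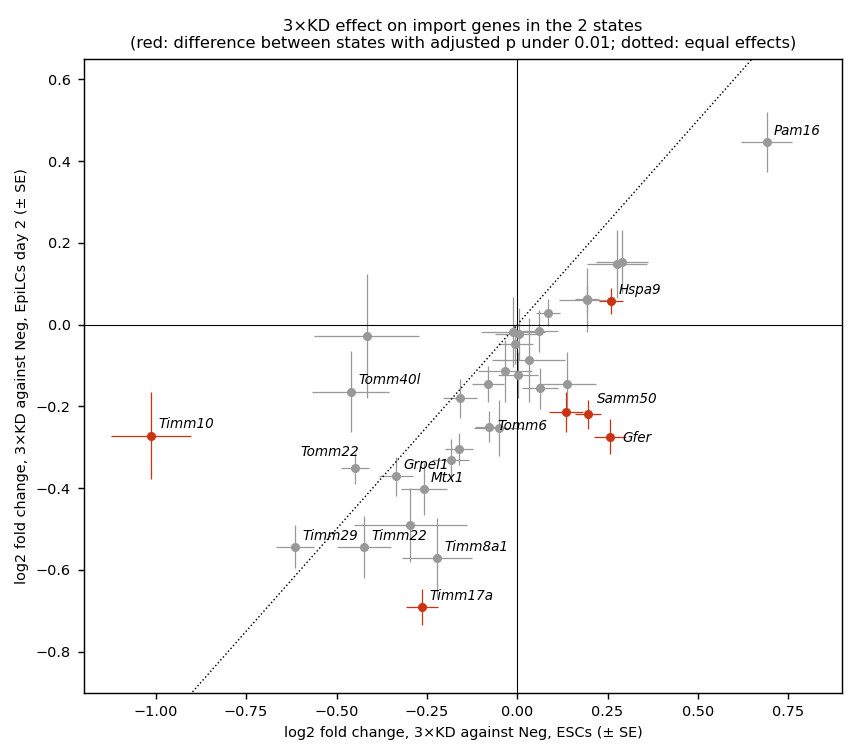
Log2 fold change of 3×KD against Neg in EpiLCs (vertical, ± SE) against that in ESCs (horizontal, ± SE) for 36 import genes (*Tomm6os* is not drawn), with the 6 members whose effect differed between states in red and the line of equal effects dotted. *Gfer*, *Samm50* and *Tomm6* lie to the right of 0 and below it, *Timm10* lies far to the left of the line, and *Timm29*, *Tomm22* and *Grpel1* lie close to the line at negative values in both states.

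Genes that work beside the import machinery were grouped in 6 lists, and their counts stand against the same backgrounds as those of the members. In 3×KD ESCs, 15.6% of all genes were higher and 16% lower, and 27.3% and 33.4% of those of at least 10 CPM. In 3×KD EpiLCs these shares were 14.3% and 15.6%, and 25.1% and 35.1%. Of 8 genes for presequence processing and membrane insertion, 2 were higher and 2 lower in 3×KD ESCs, and 1 was higher and 4 lower in 3×KD EpiLCs. *Cox18*, an inserter of the inner membrane, was the one called, in ESCs (0.61 ± 0.089, adjusted p = 2.79e-05), and *Pmpca*, a subunit of the processing peptidase that removes presequences, was lower in both states (−0.18 ± 0.037, adjusted p = 0.000826 and −0.45 ± 0.037, adjusted p = 4.59e-08). *Pmpca* no longer passed in ESCs without 3×KD ESCs replicate 1 (−0.14) and with transcript-length offsets (−0.15). Of 10 other import-related proteins, 3 were higher and 1 lower in ESCs, and 3 and 3 in EpiLCs. Of these, the 3 that were higher in ESCs, *Timmdc1* (0.47), *Trap1* (0.48) and *Dnaja3* (0.30), all lie on chromosome 16 and are the 3 of 48 list genes on it, beside the median of 0.30 of that chromosome. Called in EpiLCs were *Hscb*, a cochaperone of iron-sulfur cluster assembly (0.75 ± 0.12, adjusted p = 7.95e-05), and *Dnlz*, an escort protein of *Hspa9* (−0.65 ± 0.11, adjusted p = 0.00017).

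Of 10 mitochondrial proteases and prohibitins, 2 were higher and 1 lower in 3×KD cells in each state, with no call and log2 fold changes from −0.28 to 0.22 over both states. Of 8 MICOS genes, which shape the cristae, 3 were higher and 1 lower in ESCs, and none higher and 3 lower in EpiLCs, and *Dnajc11* was called in both (−0.62 ± 0.034, adjusted p = 4.15e-10 and −0.77 ± 0.033, adjusted p = 3.81e-11). Of the 3 transcription factors linked to mitochondrial stress, *Ddit3*, which encodes CHOP, was called in both states (1.99 ± 0.063, adjusted p = 1.4e-12 and 1.32 ± 0.06, adjusted p = 5.61e-11), *Atf4* was higher in both (0.40 and 0.17) and *Atf5* lower in both (−0.28 and −0.32). *Atf5* no longer passed in ESCs without Neg ESCs replicate 2 (−0.19), 3×KD ESCs replicate 1 (−0.24) or 3×KD ESCs replicate 3 (−0.22) and with both groups alone (−0.29), nor did *Atf5* in ESCs and *Atf4* in EpiLCs with transcript-length offsets (−0.28 and 0.15). Of 9 cytosolic chaperone genes, 3 were higher and 4 lower in ESCs, and 2 and 4 in EpiLCs. *Hspa1a* (1.16) was called higher and *Hspa8* (−0.61) and *Dnaja1* (−0.73) lower in 3×KD ESCs, all of which code for Hsp70 chaperones or their partners in the cytosol.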

How the data were processed

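Total RNA was sequenced as 12 single-end directional libraries after ribosomal RNA depletion. Per the submitters' processing notes, reads were demultiplexed with bcl2fastq, trimmed with Trim Galore 0.6.7, aligned with STAR 2.7.9a and quantified with Salmon 1.10.1 on GRCm39. The authors deposited one table per library with an estimated count and a TPM value per transcript. Samples were grouped by their titles, because the cell-type field of the labels goes against some of them.

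The estimated counts were added up by gene and rounded to whole numbers. Genes with at least 10 counts in all were fitted in R 4.3.3 with edgeR 4.0.16 (TMM factors, quasi-likelihood test, all 4 groups in one model with contrasts), with Benjamini-Hochberg adjustment over the 25446 genes. Limits were an adjusted p of 0.01 and, for calls, a log2 fold change beyond 0.58. Levels are given as CPM with TMM library sizes. TPM values were summed per gene and used only between genes of a library and for the shares of paralog pairs, which were compared by exact permutation tests. The libraries held 11221023 to 19652197 counts, and counting error covers only part of the spread between them. On simulated counts with log2 changes of 1 in 200 genes, the test recovered 79.5% of them in the comparison of 3×KD with Neg ESCs and 78% in EpiLCs, each over all genes simulated. Nearly all 3×KD differences of the members were smaller than 1, so these shares do not tell how often such differences are found.

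The alternatives were upper-quartile or RLE factors, no factors but library size, DESeq2 1.42.0, other filters, offsets for transcript length, a replicate block, only the groups compared, and each library left out. Members given in full were those with the largest log2 fold changes among the genes past the p limit, at most 5 per direction and comparison, with a mean of at least 1 CPM, and all subunits are covered by the counts. The members and the gene lists were chosen with earlier results of these data known. Positions and sequences come from the GRCm39 primary assembly with GENCODE vM39, in which 56620 of the 57180 genes were found. Stretches printed were ended at the nearest coding gene's exons. Sequences from mouse chromosome 18 are not reported here.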

Additional observations from a re-analysis of the deposited data

Results flagged for a closer look

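For 6 import genes the effect of 3×KD differed between EpiLCs and ESCs by the test of the difference itself (edgeR's quasi-likelihood test, 3 libraries per group). The difference, as the log2 fold change in EpiLCs minus that in ESCs, was 0.7421 for *Timm10*, −0.53 for *Gfer*, −0.4268 for *Timm17a*, −0.4157 for *Samm50*, −0.3486 for *Tomm6* and −0.2024 for *Hspa9*. *Timm10* was lower in 3×KD than in Neg ESCs, and did not pass in EpiLCs. *Timm17a* was lower in both, and by more in EpiLCs. *Gfer* and *Samm50* were higher in 3×KD ESCs and lower in 3×KD EpiLCs.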

How the results depend on the processing

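Over 22 alternative settings, 2826 values were recomputed for 154 results, and 2578 of them kept their direction and their side of the limit or moved by less than the limit. Of the log2 fold changes that passed, 2 changed direction, both with transcript-length offsets: *Timm44* in EpiLCs (0.0068 in place of −0.18) and *Spg7*, a mitochondrial protease, in ESCs (−0.2633 in place of 0.16). The cause was not tested. These offsets also moved the most counts: 7 members passed in ESCs, 11 in EpiLCs (4 of them called), 9 in Neg and 7 in 3×KD cells between states, and 3 for the difference between states, and the median in Neg cells was 0.093. With only the groups compared, 2 members were called in EpiLCs. With library size alone, the median of the members was −0.0966 in EpiLCs, 0.005 in Neg cells, −0.0058 in 3×KD cells and −0.0559 for the difference between states, and with upper-quartile factors it was 0.1242 in Neg and 0.0305 in 3×KD cells, the latter positive in place of −0.04. Over all genes of at least 1 CPM, the median with library size alone was 0.0663, −0.0461, 0.0176 and 0.0642 in the same order. With upper-quartile factors it was 0.0724 in Neg and 0.0536 in 3×KD cells. The median of the members in ESCs changed sign as well, to 0.0296 in place of −0.03 without 3×KD ESCs replicate 1.

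With 1 library left out at a time, 11 to 18 members passed in ESCs (3 to 4 called, median −0.0637 to 0.0296), 14 to 18 in EpiLCs (1 to 3 called, median −0.1809 to −0.1217), 12 to 17 in Neg cells (1 to 3 called, median 0.0405 to 0.1082), 12 to 14 in 3×KD cells (2 to 4 called, median −0.0769 to −0.0218) and 5 to 9 for the difference between states (median −0.1757 to −0.1081).

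From counts not divided by length, the differences in the share of *Timm17a* were −2.712 percentage points in ESCs (in place of −0.49 per length), −5.647 in EpiLCs (−4.10), −1.633 between states in 3×KD cells (−3.68) and 1.301 in Neg cells (−0.077), the last with another sign. Those of *Timm8a1* were −8.721 in ESCs (−4.81) and −12.66 in EpiLCs (−8.28), and 8.93 and 4.996 between states in Neg (6.13) and 3×KD cells (2.66). Those of *Hspd1* were −2.137 in ESCs (−3.67) and −2.646 in EpiLCs (−4.08). Those of *Tomm40* were −0.4998 in EpiLCs (−2.52) and, with another sign, −2.034 between states in Neg cells (0.69).

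With a replicate block, 15 members passed in ESCs, 15 in EpiLCs, 15 in Neg cells and 14 in 3×KD cells, and 6 for the difference between states. Members that no longer passed were *Timm23* in ESCs, *Timm17b* and *Timm44* in EpiLCs, *Timm8a2* in Neg and *Timm22* in 3×KD cells, with adjusted p from 0.0101 to 0.0108. Over 18 pairs of same-numbered libraries, the correlation of their deviations from the group means ran from −0.135 to 0.1. It was above 0.1 in 0 of them, and no pairing was used. With 3 libraries per group, this check cannot exclude that same-numbered libraries were handled together.

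*Timm21* in ESCs, *Tomm6os* and *Timm8a2* rest on low counts, so differences in them were hard to detect at this depth.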
